A study of Arabidopsis thaliana with 36 samples.

Results

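The genes described here are the plastid-encoded genes of photosynthesis and of the NDH complex, followed in 6 cell populations of the Arabidopsis thaliana root. A probe set was taken when it mapped to exactly 1 plastid-encoded gene whose symbol starts with psa, psb, pet, atp, ndh or rbcL. This gave 43 probe sets for 43 different genes, of 22746 probe sets on the array without the Affymetrix controls. They comprise 15 genes of photosystem II, 5 of photosystem I, 6 of the cytochrome b6f complex, 6 of the ATP synthase, 10 of the NDH complex, and rbcL. The RefSeq annotation of assembly TAIR10.1 lists 45 plastid genes with these symbols, and the 2 copies of ndhB share 1 probe set that maps to both and was left out.

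Cells were isolated by protoplasting and fluorescence-activated sorting from roots of Columbia seedlings 6 days after germination, each population from a line with its own GFP reporter. The reporters were WER::GFP for epidermis with lateral root cap (called epidermis below), PET111 for columella, CORTEX for cortex, SCR::GFP for endodermis with quiescent center (endodermis), WOL::GFP for stele and S32 for protophloem. Roots stayed on standard medium or were moved to 140 mM NaCl for 1 h before protoplasting, which gives 12 groups of 3 ATH1 arrays, and all groups passed through the same sorting and 2-cycle amplification. The series sets the salt response of each cell type beside that of the others.

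Plastids keep a small genome of their own, read mostly as long polycistronic transcripts by a plastid-encoded and by nucleus-encoded RNA polymerases. In leaves the proteins named here sit in the thylakoid membrane: photosystem II takes electrons from water, the cytochrome b6f complex passes them on, photosystem I raises them to ferredoxin, and the ATP synthase uses the proton gradient that results. The NDH complex returns electrons from ferredoxin to the plastoquinone pool, and rbcL encodes the large subunit of Rubisco, which fixes CO2. Roots hold non-green plastids, such as the starch-filled amyloplasts of the columella that sense gravity, and these carry the same genome. The amplification used here is primed at the poly(A) tail, which stable plastid transcripts generally lack.

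Signals are linear MAS5 intensities with the same trimmed mean on each array, and group differences below are on the log2(signal + 16) scale, which understates changes of low signals. The array medians ranged from 62.0 to 95.6 and the 40th percentiles, used as a floor, from 32.4 to 66.3. The small number of arrays limits the precision. All 43 genes entered the tests by exceeding the 40th percentile of the array on at least 3 arrays, and 23 of them exceeded it on all 36. The fewest were 14 of 36 arrays, for atpI. Nothing in the labels ties a replicate to its own planting, so each p-value reflects array-to-array spread that may be partly technical. Of the markers listed for each population, AT1G09750, for cortex, had a mean signal of 2650 in cortex on standard medium and 235 with salt. Other markers were less exclusive on standard medium: EN7 had 447 in endodermis and 383 in cortex, AGL42 153 in endodermis, 144 in protophloem and 132 in cortex, and PHV 381 in stele and 373 in columella. LHW was highest in stele (596) and OPS in protophloem (72.5), while with salt AGL42 was higher in cortex (357) than in endodermis (182) and LHW higher in protophloem (425) than in stele (256). No marker of epidermis or columella had a probe set naming 1 gene. Of 8 markers of green shoot cells only RCA, which encodes Rubisco activase, was measured, with group means from 30.0 to 491, highest in cortex on standard medium.

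The mean log2 signal of the 43 genes differed widely between populations. On standard medium it was 7.14 ± 0.30 (SD, n = 3 arrays) in epidermis, 7.40 ± 0.27 in columella, 7.75 ± 0.07 in cortex, 8.06 ± 0.41 in stele, 9.59 ± 0.15 in endodermis and 10.59 ± 1.41 in protophloem. With salt it was 7.60 ± 0.40 in columella, 8.35 ± 0.58 in stele, 8.46 ± 0.95 in protophloem, 8.80 ± 0.47 in epidermis, 9.71 ± 1.05 in endodermis and 9.73 ± 0.52 in cortex. Protophloem stood first on standard medium and below cortex, endodermis and epidermis with salt, while columella stood last with salt. The arrays of neighbours in these orders overlapped, except between columella and cortex and between stele and endodermis on standard medium. In sorted bulk RNA, fewer cells of a kind and less RNA per cell cannot be told apart.

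**Figure D1:**
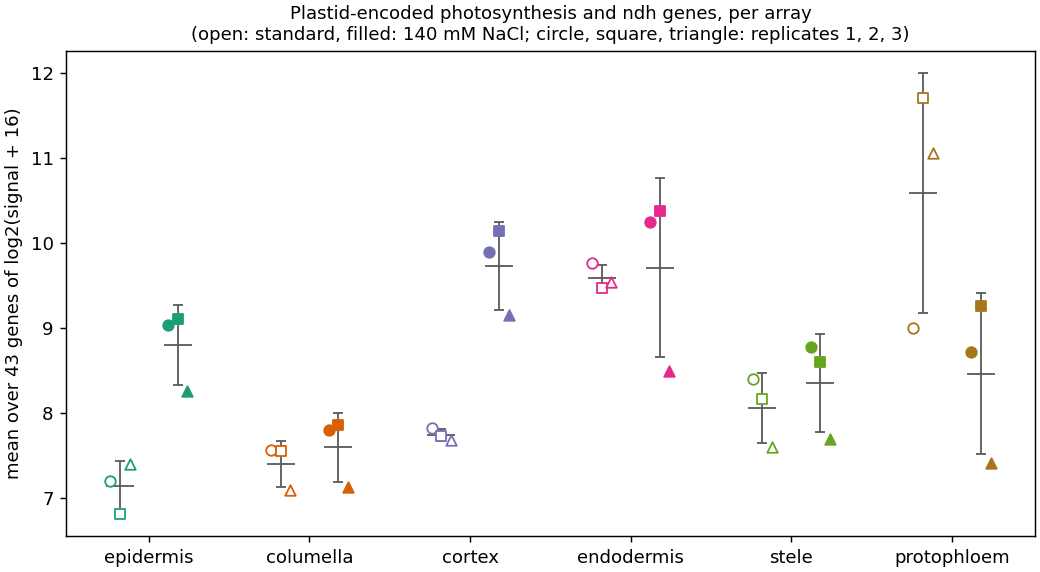
Mean of log2(signal + 16) over the 43 plastid-encoded genes on each of the 36 arrays, by population; open symbols are standard medium and filled symbols 140 mM NaCl, with circle, square and triangle for replicates 1, 2 and 3, and the bars are the group mean ± SD (n = 3). Protophloem on standard medium reached 10.59 ± 1.41 and fell to 8.46 ± 0.95 with salt, and replicate 3 was the lowest in 6 of 6 salt groups.

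Several arrays stood apart within their group. In protophloem on standard medium the mean log2 signal was 9.0 on replicate 1, 11.70 on replicate 2 and 11.05 on replicate 3. In endodermis with salt replicate 3 had 8.50, the others 10.25 and 10.38, and in protophloem with salt replicate 3 had 7.41. Replicate 3 had the lowest mean of the 43 genes in 9 of the 12 groups, 3 of 6 on standard medium and 6 of 6 with salt.

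These levels were set beside the GAPDH 5'/3' signal ratio of each array, which compares the 5' and 3' probe sets of 1 control transcript. What lowers this ratio on an array was not tested. On standard medium this ratio averaged 1.52 ± 0.163 (SD, 3 arrays) in epidermis, 0.444 ± 0.0596 in cortex, 0.239 ± 0.0124 in stele, 0.183 ± 0.0315 in endodermis, 0.173 ± 0.112 in columella and 0.0499 ± 0.0318 in protophloem. With salt it was 0.248 ± 0.140 in epidermis, 0.150 ± 0.0760 in cortex, 0.226 ± 0.0452 in stele, 0.159 ± 0.0719 in endodermis, 0.142 ± 0.0803 in columella and 0.162 ± 0.0880 in protophloem. The population with the lowest ratio on standard medium had the highest plastid signals, and the one with the highest ratio the lowest. In 11 of 12 groups the array with the lowest ratio had the highest mean of the 43 genes, in 11 of 12 the array with the highest ratio had the lowest mean, and in 10 of 12 the order was fully opposite. In protophloem on standard medium the ratios of replicates 1, 2 and 3 were 0.0830, 0.0195 and 0.0473.

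A slope on the log2 GAPDH ratio was fitted within the 12 groups, so that differences between groups did not enter it. It was negative for 41 of the 43 genes at an adjusted p under 0.05 (limma), where 5.55% of all 17633 probe sets tested had a negative slope called and 8.79% a positive one. The median slope was -0.87 log2 units of signal per log2 unit of the ratio, against 0.0052 over all probe sets, and ranged from -1.51 ± 0.19 (SE) for atpF to -0.22 ± 0.18 for psbH. The slopes of psbH and of atpB, -0.31 ± 0.16, were not called. The count was 34 to 41 when each array was left out in turn (3.96% to 6.43% of all probe sets). It was 29 with a replicate block (1.07%), 30 without protophloem (3.57%) and 39 on replicates 1 and 2 alone (2.44%). On the salt arrays it was 33 (3.20%) and on the standard arrays 18 (1.67%). Against the actin 5'/3' ratio 0 of 43 slopes were called by limma (1 negative at an unadjusted p under 0.05). The part of the GAPDH ratio in the differences between groups was not tested. Counts of the 43 genes below are given with and without this ratio as a covariate. The shares of all probe sets beside them are from the fit without the covariate. Whether the share of all probe sets moved alike with the covariate is not shown. The ratios of epidermis on standard medium, 1.41 to 1.71, lie above those of every other array (at most 0.504), so adjusted values there extend the slope beyond the other arrays.

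**Figure D2:**
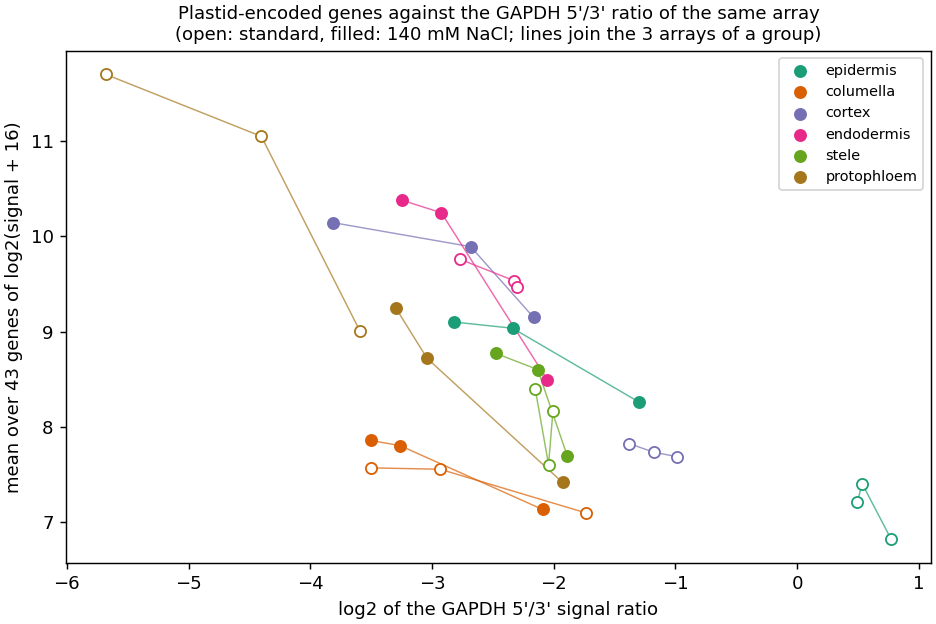
Mean of log2(signal + 16) over the 43 genes against the log2 GAPDH 5'/3' signal ratio of the same array; colours are populations, open points standard medium, filled points 140 mM NaCl, and lines join the 3 arrays of a group. The order of the gene means against the ratios is fully opposite in 10 of 12 groups, and columella on standard medium lies below endodermis at like mean ratios of 0.173 and 0.183.

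On standard medium each of the 43 genes differed between the 6 populations (limma F-test, where 85.5% of all probe sets did). The mean signal was highest in protophloem for 39 of them and in endodermis for the other 4, and lowest in epidermis for 17, columella for 12, cortex for 12 and stele for 2. With salt, 36 of the 43 differed (73.1% of all probe sets). Then the mean was lowest in columella for 42 genes and in stele for 1, and highest in cortex for 21, endodermis for 21 and epidermis for 1.

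In protophloem on standard medium all 43 genes were above the mean of the other 5 populations, where 21.6% of all probe sets were called higher. The median difference was 2.71 log2 units against -0.08 over all probe sets. The photosystem I gene psaC, for the iron-sulfur subunit that passes electrons to ferredoxin, had signals of 265, 1893 and 2655 in protophloem, against 15.6, 51.7 and 262 as the lowest, median and highest of the other 15 arrays. No protophloem array overlapped the others. Its difference was 3.92 ± 0.45 (SE, adjusted p = 1.9e-08). The SE comes from a spread pooled over all groups. The SD of the 43-gene mean was 1.41 in protophloem on standard medium against 0.67 pooled within groups. SE and p-values for protophloem thus understate its own spread. psbT, a small subunit of photosystem II, had 537, 3185 and 1427 against 19.9, 93.7 and 402 (3.75 ± 0.47, adjusted p = 1.0e-07). ndhK, of the part of the NDH complex that faces the stroma, had 306, 2214 and 873 against 13.6, 54.9 and 254 (3.45 ± 0.47, adjusted p = 4.2e-07). These 3 of the 43 genes were the members whose arrays did not overlap, no more than the 12.2% of all probe sets without overlap. With the GAPDH ratio as a covariate, 0 of 43 were called higher, the median difference was 0.047, and the 43 values ran from -1.63 to 1.51, 17 of them below 0.

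Endodermis was the other population with high plastid signals on standard medium. There 29 genes were above the other populations and 0 below, where 13.7% of all probe sets were higher, with a median of 1.43 against -0.10. The smallest adjusted p was that of psaB, a core subunit of photosystem I, with signals of 7283, 7133 and 7011 against 136, 2627 and 15208 as the lowest, median and highest of the other arrays (1.89 ± 0.31, adjusted p = 2.8e-05). atpB, the catalytic beta subunit of the ATP synthase, had 6425, 6305 and 5415 against 731, 1832 and 8055 (1.81 ± 0.34, adjusted p = 0.00012). atpH, of the membrane ring of that enzyme, had 2218, 2939 and 2365 against 82.1, 377 and 6513 (2.31 ± 0.44, adjusted p = 0.00016). In each case the protophloem arrays reached above those of endodermis, and for 0 of the 43 genes did the 3 endodermis arrays lie apart from all others (5.93% of all probe sets). Adjusted for the GAPDH ratio, 24 genes were called higher and 0 lower, with a median of 1.00 and psaB at 1.63 ± 0.26. The count was 17 without replicate 1 and 19 without replicate 3.

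In columella 23 genes were below the other populations on standard medium, with 0 above, where 12.2% of all probe sets were lower, and the median was -1.17 against 0.07. Of photosystem II 12 of 15 were lower, and of the NDH complex 2 of 10. psbF and psbE encode the subunits of cytochrome b559 in photosystem II. psbF had 165, 183 and 161 in columella, against 212, 537 and 4690 as the lowest, median and highest elsewhere (-1.97 ± 0.44, adjusted p = 0.00093). psbE had 90.0, 79.1 and 71.5 against 94.9, 178 and 1188 (-1.40 ± 0.35, adjusted p = 0.0026). For petB, the cytochrome b subunit of the b6f complex, the columella arrays had 586, 731 and 916 against 1074, 1643 and 4947 (-1.48 ± 0.35, adjusted p = 0.0016). For these 3 genes, and no other of the 43, the columella arrays lay apart, near the share of all probe sets (6.50%). The count was 15 without replicate 2 and 13 without replicate 3. Adjusted for the ratio it was 41, with a median of -1.87 and all 43 differences below 0.

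Columella and endodermis had like mean GAPDH ratios on standard medium, 0.173 ± 0.112 and 0.183 ± 0.0315 (SD, n = 3). The single arrays ran from 0.0884 to 0.301 in columella and from 0.147 to 0.203 in endodermis. The actin ratio averaged 0.0720 in columella and 0.0327 in endodermis. For 42 of the 43 genes every endodermis array was above every columella array, where this held for 17.0% of all probe sets. The exception was psaA, at 74.8, 53.6 and 89.9 in endodermis and 29.3, 62.2 and 42.6 in columella. The part of either ratio in the difference between these populations was not tested.

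In epidermis 25 genes were below the other populations on standard medium and 0 above, where 31.8% of all probe sets were lower, with a median of -1.34 against -0.15. psaB had the largest difference, with signals of 175, 136 and 174 against 1149, 4461 and 15208 as the lowest, median and highest elsewhere (-4.52 ± 0.31, adjusted p = 1.4e-12). atpE, the epsilon subunit of the ATP synthase, had 569, 645 and 846 against 2204, 4955 and 19552 (-2.97 ± 0.30, adjusted p = 1.8e-09). ndhC, a membrane subunit of the NDH complex, had 181, 93.9 and 252 against 789, 1535 and 6810 (-3.24 ± 0.33, adjusted p = 3.0e-09). They were among 9 genes for which no epidermis array reached the others, near the share of all probe sets (19.1%). Adjusted for the ratio, 2 genes were called lower and 17 higher, and the median turned to 1.52.

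Cortex had 17 genes below the other populations on standard medium and 1, psaB, above, where 28.7% of all probe sets were lower and 17.6% higher. Of the NDH complex 7 of 10 were lower. ndhD, a membrane subunit of that complex, had 126, 137 and 90.8 against 146, 470 and 5750 (-2.01 ± 0.50, adjusted p = 0.0017). petG, a small subunit of the b6f complex, had 18.2, 18.7 and 4.76 against 22.7, 44.1 and 1443 (-1.80 ± 0.49, adjusted p = 0.0039), signals under the 40th percentile of the arrays. atpF, of the stalk of the ATP synthase, had 76.6, 80.3 and 63.0 against 89.7, 414 and 3611 (-2.24 ± 0.66, adjusted p = 0.0065). The cortex arrays lay below all others for these 3 of the 43 genes, no more than the 10.5% of all probe sets that lay apart. psaB went the other way, with 4461, 4525 and 4538 against 136, 2627 and 15208 (1.09 ± 0.31, adjusted p = 0.0056). Its arrays lay within the range of the other populations. The count of lower genes was 8 to 9 without any 1 of the 3 cortex arrays and 1 with the GAPDH covariate, where 7 were higher and the median was 0.027 in place of -0.85.

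In stele 4 genes were below the other populations on standard medium, psbE, psbT, psaC and petN, where 9.83% of all probe sets were lower. This count was no more than the share of all probe sets, so it does not set the plastid genes apart in stele. psbT had 76.5, 39.3 and 19.9 in stele against 23.6, 106 and 3185 (-1.76 ± 0.47, adjusted p = 0.0061), psaC was at -1.49 ± 0.45 (adjusted p = 0.014) and petN, a small subunit of the b6f complex, at -1.55 ± 0.47 (adjusted p = 0.014). The stele arrays overlapped those of other populations for each of them. The count was 2 without stele replicate 2 or 3, 10 without protophloem replicate 1, and 10 with the GAPDH covariate.

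**Figure D3:**
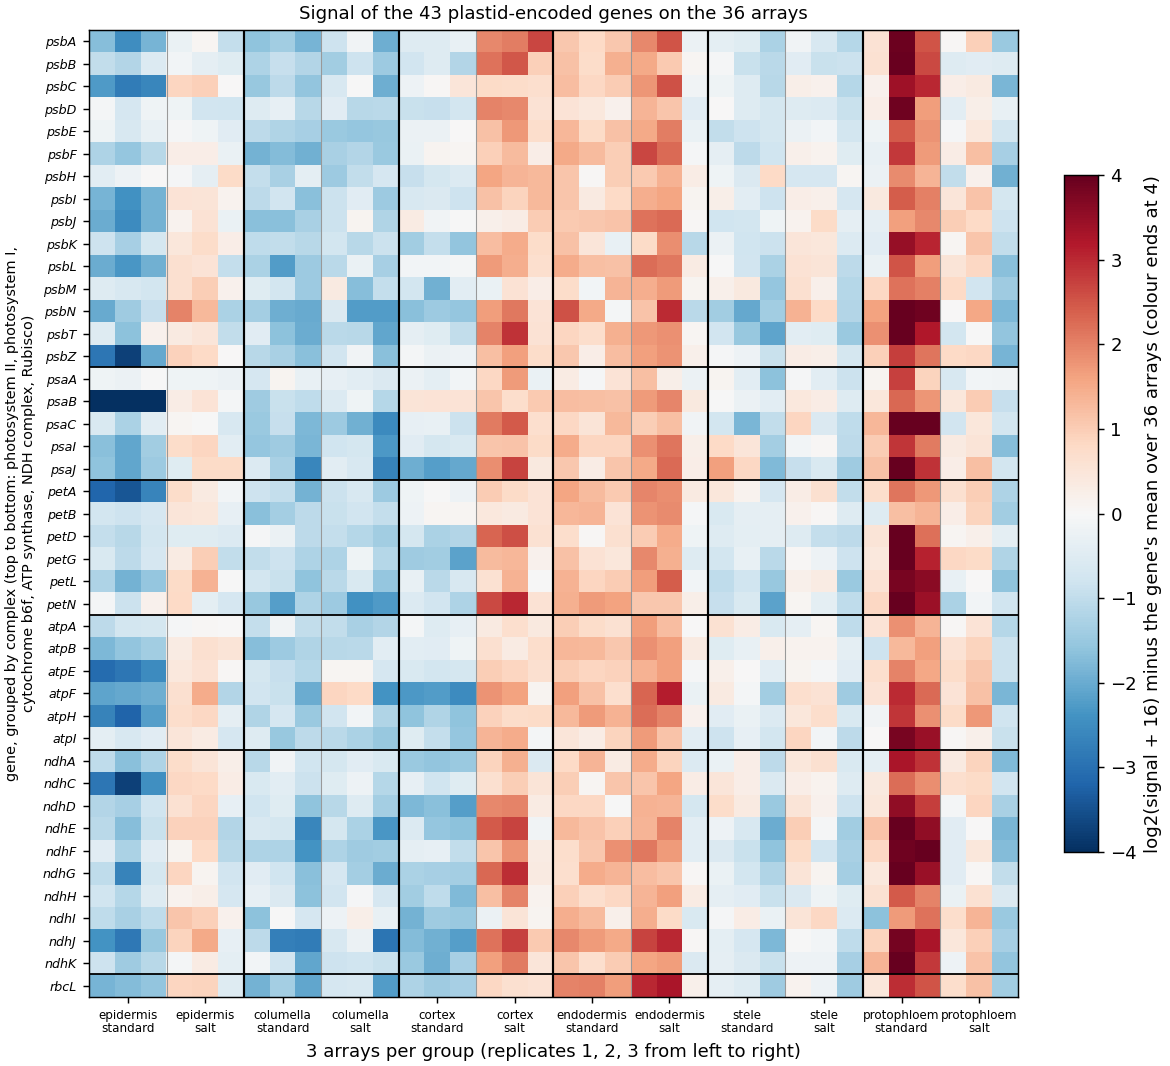
Signal of each of the 43 genes (rows, by complex) on each of the 36 arrays (columns, 3 per group, replicates 1 to 3 from left to right), as log2(signal + 16) minus the mean of the gene over all arrays. The columns of protophloem on standard medium, replicates 2 and 3, are red for nearly all genes, and psaB is blue on the 3 arrays of epidermis on standard medium, at signals of 136 to 175.

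With salt the populations stood in another order. Columella had 33 genes below the others and 0 above, where 16.9% of all probe sets were lower, at a median of -1.42 against -0.08, and 12 without replicate 3. Cortex had 21 above and 0 below, where 24.5% were higher, and 10 without replicate 1 or without replicate 2. Endodermis had 20 above and 0 below, where 9.03% were higher, but 1 without replicate 1, 2 without replicate 2 and 33 without replicate 3. In protophloem 1 gene, psbH, was called lower, where 13.1% of all probe sets were lower. In epidermis and stele 0 of 43 were called by limma (0 and 5 lower at an unadjusted p under 0.05). Of all probe sets 19.0% were higher and 18.4% lower in epidermis, and 7.26% and 5.01% in stele. Protophloem, which had 43 of 43 genes above the others on standard medium, thus had 0 above them with salt. Adjusted for the GAPDH ratio, the counts with salt were 41 lower in columella, 22 higher in cortex, 29 higher in endodermis, 6 higher in epidermis, 4 lower in protophloem and 0 in stele.

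The question of the study is how each population responds to salt, and the responses of the 43 genes went in opposite directions. In cortex 29 genes rose and 0 fell, where 22.4% of all probe sets rose, at a median of 2.00 against 0.17. In epidermis 20 rose and 0 fell, where 15.6% of all probe sets rose, at a median of 1.52 against 0.07. In protophloem 35 fell and 0 rose, where 12.4% of all probe sets fell, at a median of -2.09 against -0.07. In columella, endodermis and stele 0 of 43 passed limma's test (0, 0 and 1 higher at an unadjusted p under 0.05), with medians of 0.17, 0.20 and 0.32. Of all probe sets 5.27% rose and 8.93% fell in columella, 1.5% and 1.02% in endodermis, and 11.5% and 13.9% in stele. The arrays on salt lay apart from those on standard medium for 29 of the 43 genes in epidermis (56.0% of all probe sets) and 41 in cortex (49.3%). In protophloem they did so for 16, near the share of all probe sets (34.9%).

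**Figure D4:**
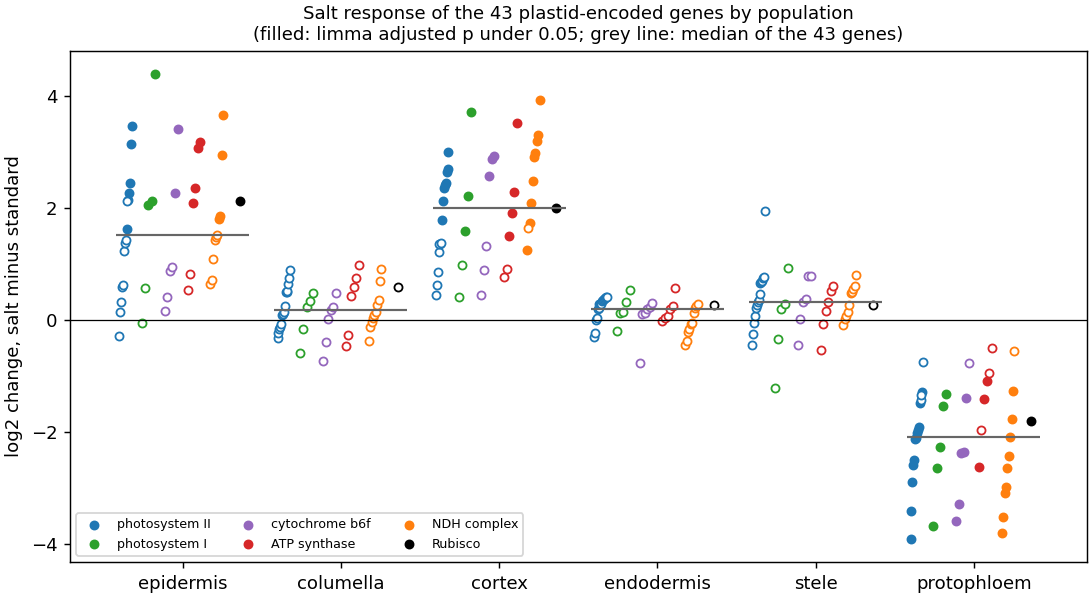
Salt minus standard difference of each of the 43 genes on the log2(signal + 16) scale, by population; colours are complexes, filled points passed limma's test at an adjusted p under 0.05 and the grey line is the median. The medians are 1.52 in epidermis, 2.00 in cortex and -2.09 in protophloem, and no point is filled in columella, endodermis or stele.

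The responses differed between the 6 populations for 39 of the 43 genes (limma F-test, 46.6% of all probe sets), the others being psbF, psaA, petB and ndhI. Against the mean of the other 5 responses, 12 genes responded more positively in epidermis (8.31% of all probe sets, with 5.82% more negatively), 26 in cortex (22.2%) and 40 more negatively in protophloem (10.2%), while 0 of 43 were called in columella, endodermis and stele (limma; 0, 0 and 2 at an unadjusted p under 0.05). In those 3 populations at most 2.08% of all probe sets were called in either direction. These contrasts share arrays. Adjusted for the GAPDH ratio, 3 genes were more positive and 9 more negative in epidermis (median 1.51 without and -1.14 with the ratio), 13 more positive and 1 more negative in cortex (2.06 and 0.68), and 0 of 43 were called in protophloem (-2.92 and -0.47). Of the 20 genes that rose in epidermis 12 also rose in cortex, 60% of the former and 41.4% of the 29 that rose in cortex. The change of the GAPDH ratio went against these responses: the ratio fell in epidermis and cortex and rose in protophloem.

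With the GAPDH ratio as a covariate 4 genes rose and 10 fell in epidermis, at a median of -1.01. In cortex 6 rose and 0 fell, at a median of 0.50 with 10 of 43 below 0, and in protophloem 4 fell and 0 rose, at a median of -0.48 with 34 of 43 below 0. The 39 genes with differing responses became 22. The protophloem count was also 12 without standard replicate 2 and 18 without salt replicate 3. Protophloem SE and p-values for salt also rest on the spread pooled over all groups.

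Among the photosystem I genes psaB had the largest change in epidermis. There it had signals of 175, 136 and 174 on standard medium and 3826, 4525 and 2920 with salt. The salt arrays were all far above the standard arrays, and the difference was 4.39 ± 0.41 (SE, adjusted p = 2.7e-09), 21.0-fold. With the GAPDH covariate it was 2.93 ± 0.47 (adjusted p = 9.0e-05). In cortex psaB had 4461, 4525 and 4538 and then 6690, 5033 and 6443, without overlap, and did not pass (0.41 ± 0.41). In protophloem it fell from 4267, 15208 and 10438 to 4248, 6295 and 1618 (-1.32 ± 0.41, adjusted p = 0.018), with overlap. Its response in epidermis exceeded the mean of the others by 4.4 ± 0.45, and the F value of its 6 responses, 22.2, was the highest of the 43.

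psaA, which encodes the partner of the psaB protein in the core of photosystem I and lies beside psaB on the plastid chromosome, did not follow it in epidermis. It had 48.2, 44.8 and 55.5 on standard medium and 47.4, 48.5 and 45.0 with salt, and did not pass (-0.05 ± 0.47, adjusted p = 0.95). The 2 groups overlapped. These signals lie near the 40th percentile of the arrays, which psaA exceeded on 26 of 36, and in protophloem psaA fell from 62.4, 461 and 117 to 30.2, 50.7 and 49.4 (-1.54 ± 0.47, adjusted p = 0.018). psaI and psaJ, small membrane subunits, rose in epidermis and in cortex, and psaC rose in cortex.

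psaC fell in protophloem from 265, 1893 and 2655 on standard medium to 49.5, 138 and 51.7 with salt. The groups did not overlap, and the difference was -3.68 ± 0.58 (adjusted p = 5.9e-05). With the GAPDH covariate it was -2.23 ± 0.55 (adjusted p = 0.0074). All 5 photosystem I genes fell in protophloem.

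Of the 15 photosystem II genes, psbA, psbC, psbI, psbJ, psbL and psbZ rose in epidermis. In cortex psbA, psbB, psbD, psbE, psbH, psbI, psbK, psbN and psbT rose, and in protophloem 12 fell. psbA encodes the D1 protein of the reaction centre and psbD its partner D2, while psbB and psbC encode the chlorophyll-binding inner antenna proteins. psbB had 80.0, 99.2 and 57.2 in cortex on standard medium and 727, 906 and 303 with salt (2.69 ± 0.48, adjusted p = 0.00010), and 1.61 ± 0.46 with the GAPDH covariate. In protophloem it fell from 233, 2527 and 997 to 98.8, 105 and 97.2 (-2.89 ± 0.48, adjusted p = 0.00011). Neither pair of groups overlapped.

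psbT fell in protophloem from 537, 3185 and 1427 to 77.3, 139 and 36.4. The groups did not overlap, and the difference of -3.91 ± 0.61 (adjusted p = 4.7e-05) had the smallest adjusted p of the 43 genes in this population. With the GAPDH covariate it was -1.94 ± 0.42 (adjusted p = 0.0026). In epidermis psbT had 93.7, 34.5 and 159 on standard medium and 186, 204 and 63.0 with salt, and did not pass.

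psbC and psbZ responded more positively in epidermis than in the other populations, by 3.31 ± 0.70 and 3.37 ± 0.61, and psbI and psbJ were called there too. psbB, psbD and psbT did so in cortex, by 3.23 ± 0.53, 2.88 ± 0.57 and 2.91 ± 0.67. Also called in cortex were psbA, psbE, psbH, psbI, psbK and psbN, so psbI was called in both populations. psbE, 1 of the 3 genes with the largest adjusted p in epidermis, had signals of 124 to 178 on standard medium there and differed by 0.15 ± 0.45 with salt. psbM, with the highest mean log2 signal of the photosystem II probe sets, ranged from 885 to 15339 and was called in protophloem alone of the 6 salt contrasts (-2.13 ± 0.59, adjusted p = 0.0089). psbD, with the lowest, ranged from 48.0 to 2040.

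In the cytochrome b6f complex petA and petL rose in epidermis, petD, petG and petN rose in cortex, and the 5 genes other than petB fell in protophloem. petA encodes cytochrome f. In epidermis it had 260, 218 and 382 on standard medium and 4182, 3168 and 2282 with salt (3.41 ± 0.48, adjusted p = 2.8e-06), without overlap, and 1.44 ± 0.51 with the GAPDH covariate (adjusted p = 0.049). Its response in epidermis exceeded that of the others by 3.43 ± 0.52, and in cortex it was 0.90 ± 0.48 and not called.

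petD, for subunit IV, had the reverse pattern. In cortex it had 42.8, 24 and 26.3 on standard medium and 461, 552 and 129 with salt, without overlap (2.88 ± 0.54, adjusted p = 0.00016). In epidermis it had 33.5, 28.3 and 41.9 and then 53.1, 51.8 and 49.0, without overlap, and did not pass (0.42 ± 0.54). Adjusted for the ratio, petD was at 1.40 ± 0.43 in cortex and at -1.97 ± 0.53 in epidermis, where it was then called lower. petN, also among the 3 genes with the largest adjusted p in epidermis (0.17 ± 0.61), rose in cortex by 2.93 ± 0.61.

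The ATP synthase genes atpB, atpE, atpF and atpH rose in epidermis, atpE, atpF, atpH and atpI rose in cortex, and atpA, atpE and atpI fell in protophloem. atpE had 569, 645 and 846 in epidermis on standard medium and 6680, 7304 and 5096 with salt. All 3 salt arrays lay above the standard arrays (3.19 ± 0.38, adjusted p = 2.5e-07), and the difference was 1.57 ± 0.40 with the GAPDH covariate. In cortex atpE went from 3260, 2977 and 3033 to 9801, 8900 and 7713 (1.5 ± 0.38, adjusted p = 0.0032), and in protophloem from 7900, 19552 and 14278 to 8277, 10313 and 2706 (-1.08 ± 0.38, adjusted p = 0.038). The protophloem groups overlapped.

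In protophloem 3 of 6 genes of the ATP synthase fell, where the median was -1.25 against -2.09 over the 43 genes. This difference was not tested. atpB had 1432, 6262 and 8055 in protophloem on standard medium and 3826, 4761 and 1409 with salt (-0.50 ± 0.43, not called). atpI, with the lowest mean log2 signal of the complex, had signals from 2.78 to 750 and exceeded the 40th percentile on 14 of 36 arrays.

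Of the NDH genes 9 of 10 rose in cortex, at a median of 2.71 against 2.00 over the 43 genes, a difference that was not tested. The exception was ndhF (1.64 ± 0.69, adjusted p = 0.058). In epidermis ndhA, ndhC, ndhI and ndhJ rose, and in protophloem 9 of 10 fell, all but ndhI. Against the other populations, 8 of 10 responded more positively in cortex and 1, ndhC, in epidermis. ndhJ gave the largest difference of the 43 genes in cortex, from 37.3, 30.9 and 22.7 on standard medium to 783, 1172 and 350 with salt (3.94 ± 0.75, adjusted p = 0.00022).

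ndhH, a subunit of the stromal part of the complex, had the smallest adjusted p in cortex. It had 8.02, 15.1 and 2.35 on standard medium and 127, 231 and 53.1 with salt, without overlap (2.49 ± 0.44, adjusted p = 8.1e-05), and 1.21 ± 0.32 with the GAPDH covariate (adjusted p = 0.0090). Its signals on standard medium lie under the 40th percentile, where a fold change is uncertain. ndhC had 181, 93.9 and 252 in epidermis on standard medium and 2605, 2536 and 1761 with salt, without overlap (3.67 ± 0.43, adjusted p = 1.7e-07), and 1.90 ± 0.46 with the GAPDH covariate. In cortex ndhC rose from 1147, 816 and 1032 to 2239, 2859 and 2069 (1.25 ± 0.43, adjusted p = 0.023).

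The 4 genes called higher in epidermis with the GAPDH covariate were psaB, ndhC, atpE and petA, 1 each of photosystem I, the NDH complex, the ATP synthase and the b6f complex. The 4 called lower in protophloem were psbT, psaC, psbB and petN, and the 6 called higher in cortex were ndhH, psbB, ndhJ, petD, psbH and ndhD.

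rbcL followed the general pattern. It had 153, 167 and 189 in epidermis on standard medium and 1090, 1124 and 412 with salt (2.14 ± 0.65, adjusted p = 0.013), and 244, 214 and 228 in cortex and then 1064, 934 and 899 (2.00 ± 0.65, adjusted p = 0.016). Neither pair overlapped. In protophloem it fell from 816, 4704 and 3476 to 977, 1356 and 220 (-1.80 ± 0.65, adjusted p = 0.040), with overlap. Adjusted for the ratio, rbcL was at -0.63 in epidermis and 0.0034 in protophloem and was called in neither. On standard medium it had 2403, 2453 and 1938 in endodermis, 2.61 ± 0.50 above the other populations, and 2.13 ± 0.36 with the covariate.

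Averaged over the 6 populations, 12 of the 43 genes rose with salt and 0 fell, where 20.8% of all probe sets rose and 28.8% fell. The median was 0.37 against -0.09. This mean joins populations whose responses went in opposite directions, so it does not describe each of them. The smallest adjusted p were those of atpE, psaB and atpH. Adjusted for the ratio, 2 rose and 6 fell.

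The 43 genes moved together within the groups. Over the 36 arrays, with the group means removed, the correlation between genes had a median of 0.745 over 903 pairs and was above 0 for each pair, from 0.0075 to 0.946. All pairs share the same arrays and the same scaling. For the 33 pairs of neighbours on the plastid chromosome the median was 0.757, and for the other pairs 0.744. The first component held 74.3% of the variance within groups.

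Other organelle genes were set beside these 43. On standard medium the mean log2 signal of the other plastid-encoded genes was 11.41 in protophloem and 10.56 in endodermis. Elsewhere it ran from 7.58 in epidermis to 9.27 in stele. For the mitochondrion-encoded genes it was 9.34 in protophloem and 8.14 in endodermis, and elsewhere from 6.69 in cortex to 7.43 in stele. The high means in protophloem and endodermis were thus not particular to the 43 genes. Of 26 other plastid-encoded genes, 21 rose in epidermis, 21 rose in cortex and 16 fell in protophloem, and 26 of 26 had a negative slope on the GAPDH ratio within groups. Of 22 mitochondrion-encoded genes tested, 16 rose in cortex, beside 22.4% of all probe sets, and 16 fell in protophloem, beside 12.4%, and 19 of 22 had such a slope. In epidermis 4 of 22 rose, near the 15.6% of all probe sets. In cortex and protophloem the mitochondrial genes thus had medians of 1.66 and -2.05, close to the 2.00 and -2.09 of the 43 plastid genes, and in epidermis 0.39 against 1.52. These differences between lists were not tested, and the lists were not compared with the ratio as a covariate.

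The nucleus-encoded partners of the same complexes could be followed only in part, since 11 of 60 listed genes had a probe set naming 1 gene. On standard medium 8 of these 11 were higher and 1 lower in cortex (17.6% and 28.7% of all probe sets), at a median of 1.18, where 17 of the 43 plastid genes were lower at a median of -0.85. RCA had 399, 651 and 423 in cortex (2.59 ± 0.22), above all other standard arrays. LHCB4.1, of the photosystem II antenna, had 220, 212 and 197 (1.82 ± 0.28), also above all others, and ATPC1, the gamma subunit of the ATP synthase, was at 2.31 ± 0.27. In protophloem on standard medium 1 of 11 was higher and 1 lower, at a median of 0.06, where 43 of 43 plastid genes were higher. In epidermis 9 of 11 were lower, at a median of -1.25, beside 31.8% of all probe sets.

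With salt 4 of the 11 nuclear genes rose in cortex (LHCB4.3, PSBW, PSBY and AT2G26500), 2 rose in epidermis (PSBW and ATPC1) and 2 fell in protophloem (PSAN and AT2G26500), by at most 1.68 log2 units. In columella AT2G26500 and ATPC1 fell, and in stele LHCB4.1 rose and ATPC2 fell. The shares of all probe sets called in these directions were 22.4% in cortex, 15.6% in epidermis, 12.4% in protophloem, 8.93% in columella, and 11.5% and 13.9% in stele, so counts of 1 or 2 of 11 lie near them. Of 18 listed nuclear genes of the NDH complex 2 were tested, NdhN and NdhL, and both rose in cortex, by 1.02 ± 0.34 and 1.03 ± 0.29. Of 18 genes for plastid transcription and RNA processing none was measured by a probe set naming 1 gene, so they are not analysed here.

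**Figure D5:**
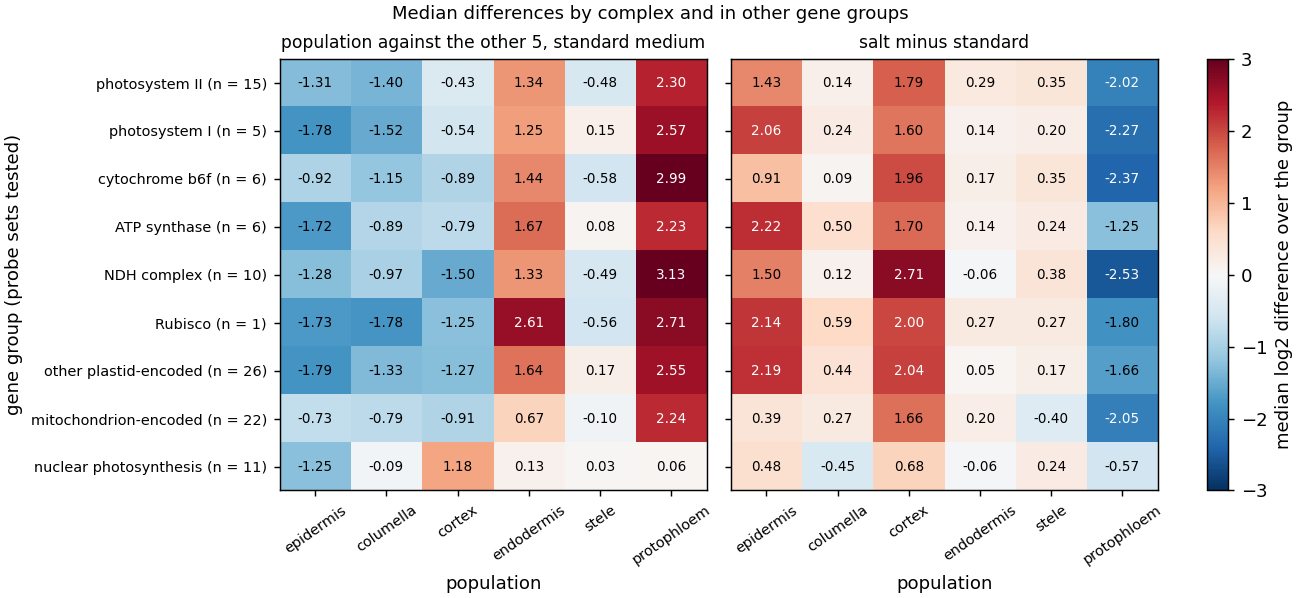
Median log2 difference of each complex and of 3 other gene groups, on the left for each population against the mean of the other 5 on standard medium and on the right for salt minus standard, with the number of probe sets tested. In protophloem the plastid complexes are at 2.23 to 3.13 on standard medium and the nuclear photosynthesis genes at 0.06, and in cortex at -0.43 to -1.5 and 1.18.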

How the data were processed

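Each array file holds linear intensities that the authors made with MAS5, per the submitters' processing notes (version and scaling not given in the sources used here). The mean of these deposited values after trimming 2% from each end was 250.02 to 250.03 on each array. This scaling removes a change of most transcripts in 1 direction. Genes were named only from probe sets with 1 gene (13513 of 22746 without the Affymetrix controls, with 503 mapping to several and 8730 to none). Symbols were updated through RefSeq TAIR10.1, whose gene start positions were used only to find neighbours on the plastid chromosome. Sequences were not analysed here, so cross-hybridisation was not checked.

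Probe sets above the 40th percentile of the array on at least 3 arrays were kept (17633). A mean for each of 12 groups was fitted to log2(signal + 16) by limma 3.58.1 (R 4.3.3; all 36 arrays, eBayes with a mean-variance trend, 24 residual degrees of freedom). Calls are at a two-sided Benjamini-Hochberg adjusted p under 0.05 over all probe sets. Known changes with salt in epidermis were planted in simulated arrays as a test of the code. Of the 1.5-fold changes 0 of 67 were recovered, of the 2-fold changes 15 of 67 and of the 4-fold changes 60 of 66. In the simulation changes of 2-fold or less were thus mostly missed. Its other 17433 probe sets held no change, while in the data 2757 probe sets rose and 2226 fell in epidermis. The adjustment was therefore stricter in the simulation, and its recovery does not give the share missed in the data. A gene that was not called may still differ. Alternatives were an offset of 64, no filter, quantile normalization, the GAPDH or actin ratio as covariate, a replicate block, no trend, the 6 arrays of a population alone and leaving out each array. Added after seeing the data were replicates 1 and 2 alone, the responses against the other 5 populations, the pairing of replicate numbers between populations, and the slopes within groups.

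The genes, gene lists and tests were chosen with earlier results of these data known. Named genes are the highest and lowest of each complex by mean log2 signal, rbcL, up to 3 called genes of smallest adjusted p per contrast and direction with groups that do not overlap first, the 3 largest F values, the 3 largest adjusted p in epidermis, and called genes where a complex has 5 or fewer. Other names, such as those of ndhJ, psbZ, psbC and atpB in protophloem, and genes called with the covariate, were chosen after their values were seen. Tables and figures used Python 3.11.15, pandas 2.3.3, numpy 2.4.6 and matplotlib 3.10.9.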

Additional observations from a re-analysis of the deposited data

Results flagged for a closer look

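The salt responses differed between populations by a test of the difference itself for 39 of the 43 genes. The largest F values over the 6 responses were those of psaB (22.2), ndhC (15.3) and atpE (14.9), which rose in epidermis and fell in protophloem. Against the mean of the other 5 responses, 12 genes were called in epidermis, 26 in cortex and 40 in protophloem. The GAPDH 5'/3' ratio moved in these 3 populations too, and its part in these differences was not tested. With the ratio as a covariate the count of genes with differing responses was 22, and against the other 5 responses 3 genes were higher and 9 lower in epidermis, 13 higher and 1 lower in cortex, and 0 of 43 called in protophloem.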

How the results depend on the processing

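Counts of called genes among the 43 are given for each setting that moved them by over 1.5 times. With the GAPDH ratio as covariate, genes higher with salt went from 20 to 4 in epidermis (lower 0 to 10), 29 to 6 in cortex, 0 to 1 in stele and 12 to 2 in the mean of populations (lower 0 to 6), genes lower in protophloem from 35 to 4, and genes with differing responses from 39 to 22. Against the other 5 responses, genes higher went from 12 to 3 in epidermis (lower 0 to 9) and 26 to 13 in cortex (lower 0 to 1), and genes lower in protophloem from 40 to 0. On standard medium genes lower than in the other populations went from 25 to 2 in epidermis (higher 0 to 17), 23 to 41 in columella, 17 to 1 in cortex (higher 1 to 7) and 4 to 10 in stele, and genes higher in protophloem from 43 to 0. With salt, 6 were then higher in epidermis and 4 lower in protophloem. Medians turned from 1.52 to -1.01 (salt, epidermis), 0.37 to -0.13 (salt, mean), 1.51 to -1.14 (epidermis against the other responses), -1.34 to 1.52 (epidermis, standard) and -0.85 to 0.027 (cortex, standard). In protophloem on standard medium ndhH, psaA and rbcL turned to -0.013, -0.10 and -0.30, and rbcL turned to -0.63 (salt, epidermis) and 0.0034 (salt, protophloem). The cause was not tested.

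With the actin ratio as covariate the counts were 10 (salt, epidermis), 7 (salt, mean), 16 lower in epidermis, 19 higher in endodermis and 0 lower in stele on standard medium, and 2 higher in cortex and 0 lower in protophloem with salt, and 4 higher in cortex against the other responses. On its own 6 arrays, without the spread pooled over all groups, epidermis gave 31 and protophloem 15 salt calls. Quantile normalization gave 10 lower in cortex and 9 in stele. On replicates 1 and 2, chosen after seeing the data, salt calls were 3 higher in columella, 2 higher and 1 lower in stele, 29 higher in the mean and 23 lower in protophloem. There, 4 were higher in stele on standard medium, 5 lower in stele and 0 lower in protophloem with salt, and against the other responses 1 was lower in cortex and 4 in stele.

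Leaving out each array in turn, salt calls were 14 to 23 in epidermis, 23 to 34 in cortex, 12 to 43 in protophloem, 11 to 18 in the mean, and 0 to 1 higher and 0 to 1 lower in stele. Against the other responses they were 9 to 17 in epidermis, 19 to 31 in cortex, 30 to 43 in protophloem and 0 to 1 in stele. On standard medium they were 17 to 34 in epidermis, 13 to 34 in columella, 8 to 22 in cortex, 17 to 34 in endodermis, 2 to 10 in stele and 38 to 43 in protophloem. With salt they were 12 to 39 in columella, 10 to 25 in cortex, 1 to 33 in endodermis, 0 to 2 in stele and 0 to 1 in protophloem, where the median of -0.32 ranged from -0.72 to 0.26, the latter without salt replicate 3. The replicate numbers did not pair all arrays: between the media of a population 8 of 18 same-numbered pairs deviated together at r over 0.1, from -0.12 to 0.45. Between populations, a check added after seeing the data, 15 of 45 did so on standard medium but 33 of 45 with salt (13 of 15 pairs of replicate 3), where the median r was 0.16 for same and -0.11 for other numbers. With the replicate block salt calls were 23 in epidermis, 32 in cortex and 37 in protophloem, 6 genes were lower in stele on standard medium, and with salt 37 were lower in columella, 23 higher in cortex and 25 in endodermis. The offset, the filter and the trend moved no count by over 1.5 times. Signals near the 40th percentile limit what atpI, ndhH and psaA can show. The same holds for ndhF, petG, psbN, psaC, petD and petN, which exceeded it on 21 to 26 of 36 arrays.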
